A study of Arabidopsis thaliana with 12 samples.

Results

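The transcripts described here were high around dawn in Arabidopsis shoots and clearly lower at every other time sampled. They were chosen on the deposited log2 values of 22746 probe sets without controls. A probe set entered when its mean over the 3 arrays at 6am was at least 6, lay at least 1.5 above the mean at each of 12pm, 6pm and 12am, and its lowest 6am array exceeded the highest of the other 9 arrays. This held for 57 probe sets. Of these, 25 name 1 gene in the platform's annotation, which makes 24 genes because AT5G54130 is on a pair of probe sets, and the other 32 are unnamed here and are given by probe set. By the same rule, 76 probe sets peaked at 12pm, 12 at 6pm and 61 at 12am.

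The seedlings were of the Columbia wild type, 10 days old, and grew on agar medium containing 1% sucrose. They were kept in days of 16 h of light, starting at 6am, and 8 h of dark. The aerial part was harvested at 6am as the lights came on, at 12pm after 6 h of light, at 6pm after 12 h and at 12am in the dark, 18 h into the cycle, and total RNA was hybridised to 1-colour Affymetrix arrays, 3 per time. Nothing in the labels tells whether the replicates are separate cultures. The p-values therefore reflect array-to-array spread alone, which may be technical. The CCA1-overexpressing line and the polysomal RNA that the labels mention were not analysed here.

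Plants track the time of day with a circadian clock, a loop of genes that repress each other in turn. Its morning-expressed MYB-like factors, CCA1 and LHY, accumulate around dawn and hold down genes of the evening, and other dawn transcripts respond to the first light itself. The 6am harvest coincided with lights on, so a rise before dawn and a response to light cannot be told apart here.

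Values are log2 expression, so each step of 1 is a doubling. The median over all probe sets lay between 5.90 and 6.03 on every array, and the lowest value of the table was 2.104. Levels under 4 were treated as dim, and folds over dim means, taken as 4, are bounds written "at least". At each time the arrays of replicates 2 and 3 resembled each other most, with r of 0.986 to 0.997 across tested probe sets, against 0.967 to 0.984 for pairs with replicate 1. The leaf genes RCA, SBPASE and PRK lay between 12.83 and 13.68 on all arrays, with 3 of the 7 leaf markers on named probe sets. Of the 9 root markers, 2 were on named probe sets. EXPA7, an expansin of root hairs, was at the lowest value on every array, and the beta-glucosidase PYK10, abundant in roots, was at 11.19 to 12.05. PYK10 differed between 6am and the mean of the other 3 times by 0.35 ± 0.15 log2 (SE, limma adjusted p = 0.101), and its part in the results was not tested.

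Over the 57 probe sets the 6am mean ran from 6.06 to 13.40 with a median of 9.69. The median of their means was 7.10 at 12pm, 6.15 at 6pm and 6.88 at 12am. The 6am lead, the 6am mean minus the highest of the 3 later means, had a median of 1.95 log2, a 3.88-fold difference. With dim means set to 4, the lead was at least 2 log2 in 26 probe sets, at least 3 in 11 and at least 4 in 3. These values chose the probe sets and are given as a description, without a test. The median of the 57 on the 6am arrays was 9.66 in replicate 1, 9.77 in replicate 2 and 9.75 in replicate 3, so the 3 replicates gave much the same level at dawn. Replicate 1 was the lowest of the 6am arrays in 28 of the 57.

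**Figure D1:**
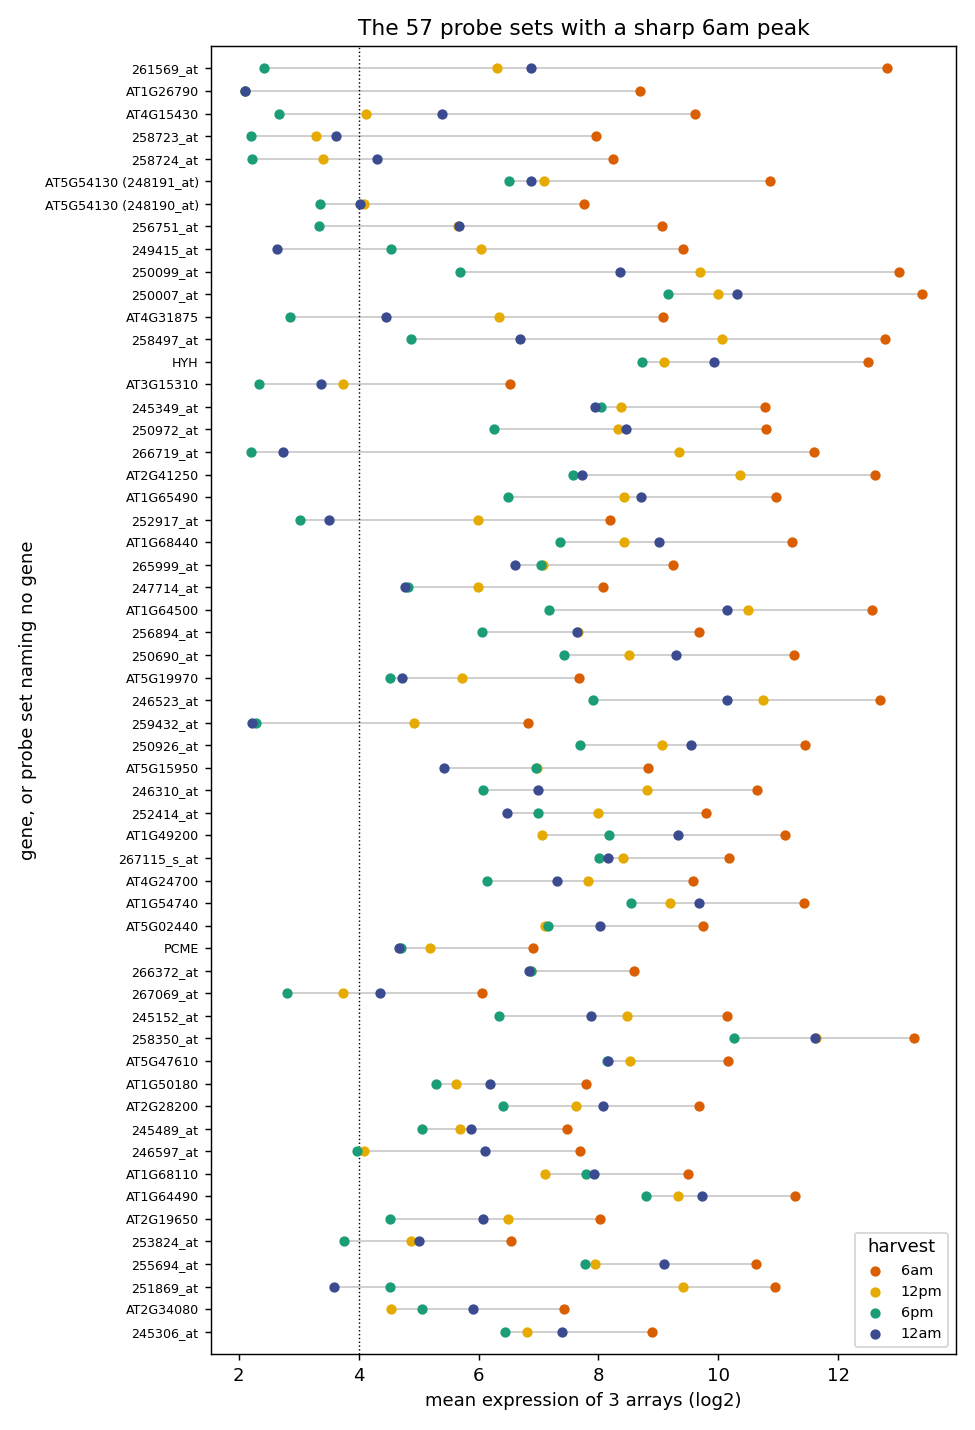
Mean log2 expression of 3 arrays at each harvest time for the 57 probe sets, ordered by the 6am lead with means under 4 (dotted line) set to 4; the grey line joins the lowest later mean to the 6am mean. The 6am point stands furthest right in each, by the choice of the probe sets, and the 6pm point is the leftmost in 42 of them.

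Among the transcription factors, AT1G26790 had the widest computed lead. It encodes a Dof-type protein of the group called cycling Dof factors, several of which repress the flowering regulator CONSTANS. It was at 8.60, 8.88 and 8.63 on the 6am arrays and at the table's floor of 2.104 on all 9 others, so that it was at least 26.0-fold higher at 6am than at each later time. Nothing of its course between the later times can be read at the floor. HYH (AT3G17609), a bZIP factor close to HY5, which promotes light-dependent development of seedlings, was at 12.50, 12.49 and 12.50 at 6am. It was at 9.25, 9.15 and 8.86 at 12pm, at 8.997, 8.81 and 8.39 at 6pm, and at 10.28, 9.80 and 9.71 at 12am. The 6am arrays of HYH differed by far less than those of any other time, and its 6am mean was 5.92-fold above the 12am mean. AT2G28200, which encodes a C2H2-type zinc-finger protein, had means of 9.68 ± 0.28 at 6am, 7.63 ± 0.27 at 12pm, 6.40 ± 0.26 at 6pm and 8.08 ± 0.34 at 12am (SD, n = 3).

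AT1G64500, of the glutaredoxin family of small thiol proteins, was at 12.87, 12.45 and 12.39 at 6am, at 10.67, 10.20 and 10.63 at 12pm, at 7.73, 6.87 and 6.91 at 6pm, and at 10.76, 10.13 and 9.56 at 12am. Its trough at 6pm lay 42.2-fold below dawn, while 12pm and 12am overlapped. AT1G49200, a RING-type protein of a class that includes ubiquitin ligases, was at 11.02, 11.14 and 11.17 at 6am and had its trough at 12pm, with 7.05, 7.02 and 7.13. It then stood at 8.60, 7.93 and 7.99 at 6pm and at 9.27, 9.39 and 9.31 at 12am, so no groups overlapped. AT5G47610, another RING-type gene, was at 10.16 ± 0.17 at 6am and between 8.15 and 8.52 in its later means. AT1G50180, of the NB-ARC family of resistance proteins, was at 8.56 on 6am replicate 1 but at 7.22 and 7.60 on the others, and its later means lay between 5.29 and 6.19. AT2G34080, of the papain-like cysteine proteases, was at 7.43 ± 0.16 at 6am and lowest at 12pm, with 4.53 ± 0.37.

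Genes linked to membranes included AT4G15430, a relative of the osmotically gated calcium channel OSCA1. It was at 10.08, 9.40 and 9.36 at 6am, at 4.53, 3.39 and 4.46 at 12pm, at 3.54, 2.13 and 2.32 at 6pm, and at 5.56, 5.19 and 5.42 at 12am. Its 6am mean was thus 18.7-fold above the 12am mean and at least 49.0-fold above the 6pm mean. AT1G68110, of a family of clathrin adaptor proteins, was at 9.50 ± 0.26 at 6am and lowest at 12pm, at 7.11 ± 0.13. PCME (AT5G15860), a methylesterase acting on prenylated proteins, was at 6.90 ± 0.17 at 6am and between 4.67 and 5.19 in its later means.

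Of the genes for enzymes, AT2G41250, a hydrolase of the haloacid dehalogenase superfamily, was at 12.31, 12.66 and 12.89 at 6am and at 10.08, 10.45 and 10.56 at 12pm. It was lower still at 6pm, with 7.46, 7.75 and 7.54, and at 12am, with 8.17, 7.43 and 7.56, and the 6pm and 12am arrays overlapped. AT5G15950, an S-adenosylmethionine decarboxylase of polyamine synthesis, was at 9.02, 8.81 and 8.63 at 6am and at 6.92, 7.12 and 6.89 at 12pm. At 6pm it was at 6.75, 7.13 and 6.98, which overlapped 12pm, and at 12am it was lowest, with 5.15, 5.53 and 5.57.

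Both probe sets of AT5G54130, a gene with a calcium-binding motif and a nuclease-type domain, had the same shape. Probe set 248191_at had means of 10.86 ± 0.09 at 6am, 7.09 ± 0.12 at 12pm, 6.51 ± 0.20 at 6pm and 6.88 ± 0.12 at 12am (SD, n = 3). Probe set 248190_at was dimmer, with 7.76 ± 1.11 at 6am and later means of 3.36 to 4.08. The lead was 3.77 log2 on the first and 3.68 on the second, and 4.31 on the second without 6am replicate 1, which was at 6.49 against 8.24 and 8.55 on the others.

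The remaining named genes have no role given here. AT4G31875 was at 9.07, 9.20 and 8.99 at 6am, at 5.95, 6.49 and 6.59 at 12pm, at 2.78, 3.01 and 2.75 at 6pm, and at 4.43, 4.28 and 4.65 at 12am, with no overlap between any of the times. AT3G15310, listed as a pseudogene, was at 6.53 ± 0.16 at 6am and under 4 in all 3 later means, at least 5.78-fold lower. AT1G65490 and AT1G68440 were at 10.96 ± 0.32 and 11.22 ± 0.47 at 6am and lowest at 6pm, at 6.49 ± 1.21 and 7.37 ± 0.42. AT5G19970 was at 7.68 ± 0.41 at 6am and AT4G24700 at 9.58 ± 0.12, AT5G02440 was at 9.74 ± 0.03, and AT2G19650, of a family with cysteine-rich and histidine-rich domains, at 8.03 ± 0.17. AT1G54740 and AT1G64490 were among the 5 brightest named probe sets at dawn, with 11.43 ± 0.56 and 11.28 ± 0.14, the others being AT2G41250, AT1G64500 and HYH. AT1G54740 was at 10.65 on 12am replicate 1 but at 9.19 on both other 12am arrays, and its lowest 6am array, replicate 1, was at 10.81.

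**Figure D2:**
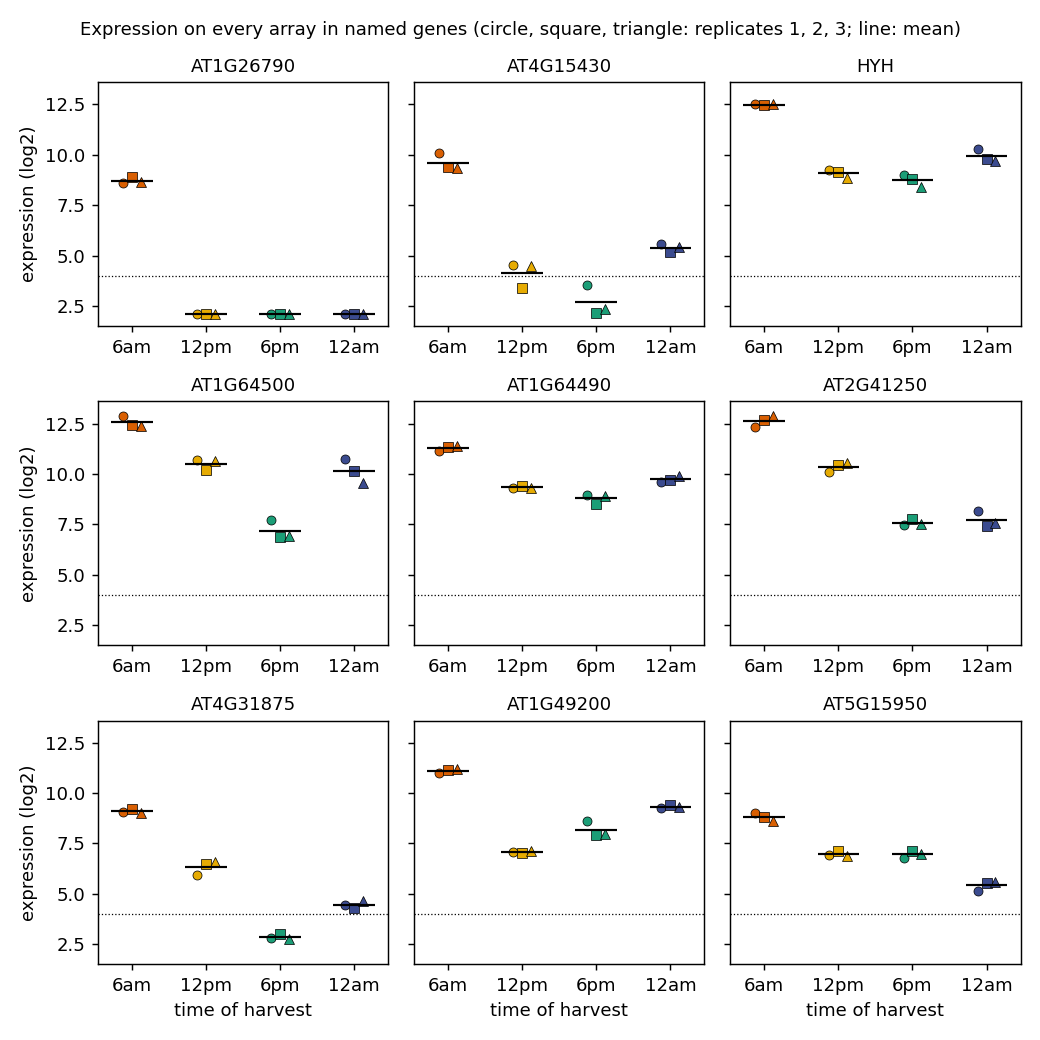
Log2 expression on every array for 9 named genes, with a circle, square and triangle for replicates 1, 2 and 3, a black line for the mean of 3 arrays, and a dotted line at 4. The trough lies at 6pm in AT4G15430, HYH, AT1G64500, AT1G64490, AT2G41250 and AT4G31875, at 12pm in AT1G49200 and at 12am in AT5G15950, while AT1G26790 is at the table's floor at all 3 later times.

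Probe sets that name no gene included the 2 brightest of the group. Probe set 250007_at was at 13.40 ± 0.10 at 6am and had later means of 9.17 to 10.32. Probe set 258350_at was at 13.27 at 6am with later means of 10.26 to 11.63. Probe set 261569_at had the largest lead once dim means were set to 4. It was at 12.73, 12.78 and 12.92 at 6am, at 6.56, 6.02 and 6.35 at 12pm, at 2.53, 2.36 and 2.36 at 6pm, and at 7.35, 6.88 and 6.41 at 12am. Its dawn mean was 60.9-fold above the 12am mean and at least 449-fold above the 6pm mean, and the 12pm and 12am arrays overlapped.

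The rule used the values at 12pm, 6pm and 12am only against 6am and treated the 3 times alike. It thus set no direction for the differences among them. The later values still took part in the choice, which took transcripts that vary strongly over the day. The shares over all tested probe sets, given beside the counts, are not those of a set chosen in that way. The differences among the later times were tested with limma across all 14185 probe sets that reached a log2 of 4 on at least 3 arrays. A call is a Benjamini-Hochberg adjusted p below 0.05 over all of them. Of the 57, 53 also reached 4 on at least 3 of the later arrays, while AT1G26790, AT3G15310, 258723_at and 258724_at passed only with their 6am arrays. The evening trough was the most frequent pattern. At 6pm, 35 of the 57 (61.4%) were lower than at 12pm, against 7.89% of all tested probe sets, and 1 (1.75%) was higher, against 6.38%. The median difference was -1.13 log2 over the 57 and 0.02 over all tested. At 12am, 34 of the 57 (59.6%) were higher than at 6pm, against 9.95% of all tested, and 2 (3.51%) were lower, against 9.97%. The medians here were 1.14 log2 over the 57 and -0.02 over all tested. Both differences use the same 6pm arrays, so these counts are not independent. In 2 of the calls at 12am against 6pm and 4 of those at 6pm against 12pm both means were under 4, and with values under 4 set to 4 before the fit the calls in either direction numbered 30 and 31. As deposited they numbered 36 in each comparison, against 19.9% of all tested probe sets for 12am and 6pm and 14.3% for 6pm and 12pm. Fitted over probe sets that passed on the later arrays alone, a filter chosen after seeing the data, 32 of the 53 were lower at 6pm than at 12pm, against 7.89%, and 31 of the 53 were higher at 12am than at 6pm, against 9.94%.

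Between 12am and 12pm the transcripts went both ways. At 12am, 13 of the 57 (22.8%) were higher than at 12pm, against 13.9% of all tested, and 15 (26.3%) were lower, against 14.2%, with a median difference of -0.02 log2 over the 57 and 0.02 over all tested. The number higher was 8 without 12pm replicate 2. Fitted over probe sets that passed on the later arrays alone, 12 of the 53 members were higher, against 13.9%, and 15 were lower, against 14.3%. The time nearest to dawn in level was 12pm for 30 probe sets, 12am for 26 and 6pm for 1, and the lowest mean was at 6pm for 42, at 12am for 10 and at 12pm for 5, with AT1G26790, equal at all 3 later times, counted under 12pm in both. In 11 of the 57, 6 of them named, no difference among the later times was called, against 63.2% of all tested probe sets. The named ones were AT1G26790, 1 probe set of AT5G54130, AT1G54740, PCME, AT5G47610 and AT1G50180. AT1G26790 was at the floor on all later arrays, so no call was possible for it. With the replicate number as a block, 8 of the 57 had no call, and at 12am against 6pm limma then called AT1G54740 (1.14 ± 0.38 log2, SE, adjusted p = 0.0459) and AT1G50180 (0.90 ± 0.23, adjusted p = 0.0154).

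**Figure D3:**
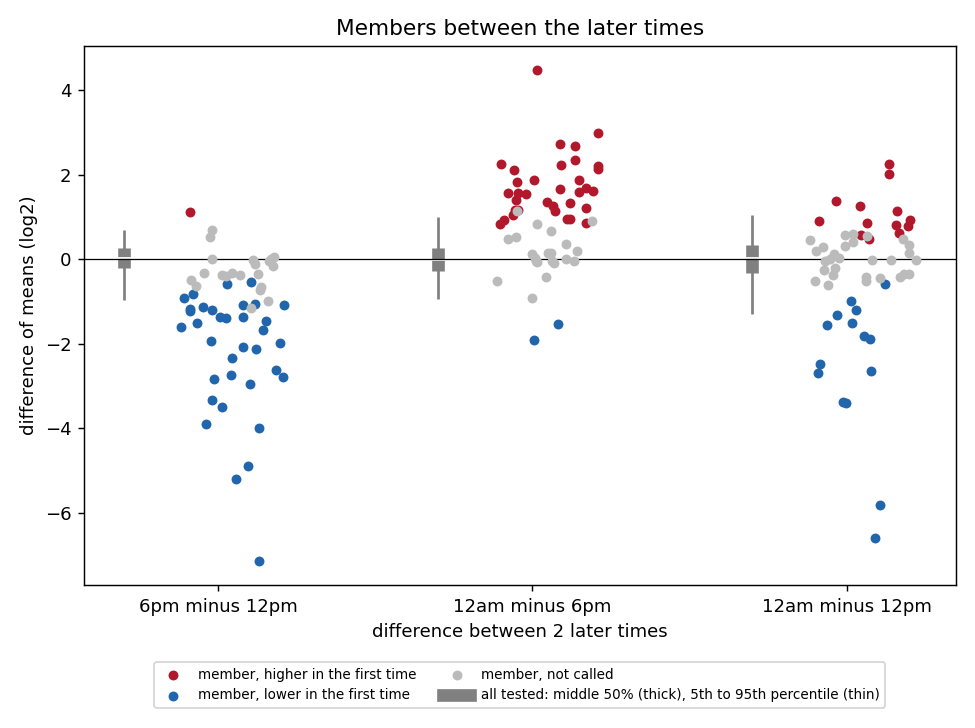
Difference of means on the log2 scale for the 57 probe sets in the 3 comparisons of later times, coloured by limma's call, beside all 14185 tested probe sets in grey bars (thick, middle 50%; thin, 5th to 95th percentile). The median lies at -1.13 for 6pm minus 12pm, at 1.14 for 12am minus 6pm and at -0.02 for 12am minus 12pm.

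In one kind of profile expression was higher at midnight than at noon. The 2 kinds described here rest on 12am against 12pm alone, and a return from the level at 6pm did not enter. AT1G49200 rose at 12am by 2.26 ± 0.17 log2 against 12pm (SE, limma adjusted p = 1.81e-06), and it was the single member higher at 6pm than at 12pm, by 1.11 ± 0.17 (adjusted p = 0.000944). AT2G34080 rose at 12am by 1.37 ± 0.19 (adjusted p = 0.000278), AT5G02440 by 0.92 ± 0.15 (adjusted p = 0.000948) and HYH by 0.85 ± 0.19 (adjusted p = 0.00642) against 12pm. AT1G68110 was 1.75-fold higher (adjusted p = 0.0203), a call lost in 4 of 19 alternatives (up to 0.0723). The rise of AT4G15430 against 12pm, 1.26 ± 0.39, had an adjusted p of 0.0295 and was not called without 12pm replicate 2 (0.120) or without any 1 of the 12am replicates, nor with all probe sets tested (0.0927), and its adjusted p ran from 0.00233 to 0.120 over the alternatives. In each of these genes all 3 arrays at 12am lay above all 3 at 12pm. For AT1G49200, AT2G34080, AT5G02440 and AT4G15430 this was a condition of being named as a rise, so it adds nothing to their calls.

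In the other kind, expression was lower at midnight than at noon. Of the 57, 28 (49.1%) were called in either direction between 12am and 12pm, against 28.1% of all tested probe sets, and the rest belong to neither kind. AT2G41250 fell at 12am to 7.72 ± 0.40, against 10.36 ± 0.26 at 12pm (SD, n = 3), a difference of -2.64 ± 0.22 log2 (SE, limma adjusted p = 4.78e-06). AT4G31875 was 3.71-fold lower at 12am than at 12pm (adjusted p = 1.2e-05), and AT5G15950 was 2.94-fold lower (adjusted p = 2.77e-05). AT5G19970 fell by 1.00 ± 0.28 (adjusted p = 0.0189), a call lost without 12am replicate 2 (0.082), without 12pm replicate 3 (0.0825) or with all probe sets tested (0.0593). The widest such differences were on probe sets naming no gene. Probe set 266719_at had 2.73 ± 0.40 at 12am against 9.34 ± 0.34 at 12pm, and 251869_at had 3.59 ± 0.92 against 9.41 ± 0.29. In both, noon and dawn were high and the evening and midnight values near or under 4.

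At 6pm AT1G64500 was 10.1-fold lower than at 12pm (limma adjusted p = 2.71e-05), AT2G41250 6.88-fold lower (adjusted p = 7.56e-06) and AT2G19650 3.96-fold lower (adjusted p = 0.000427). AT4G31875, dim at 6pm, was at least 5.07-fold lower (adjusted p = 2.2e-07). AT4G24700 fell by 1.67 ± 0.23 log2 (SE) and AT2G28200 by 1.22 ± 0.22. By midnight AT1G64500 was back at 7.89-fold above 6pm (adjusted p = 5.29e-05), AT2G28200 at 3.19-fold (adjusted p = 0.000293) and AT1G68440 at 3.14-fold (adjusted p = 0.00128). AT1G65490 was 4.66-fold higher at 12am than at 6pm, and 7.58-fold without 6pm replicate 1, which was at 7.89 against 5.78 and 5.80 on the others. AT4G15430 was at least 2.62-fold higher at 12am than at 6pm. AT5G15950 fell at 12am by 1.53 ± 0.16 against 6pm (adjusted p = 6.3e-05). Some falls at 6pm against 12pm lost their call in at least 2 of 19 alternatives. These were in AT4G15430 (adjusted p = 0.0261, up to 0.350), AT1G65490 (0.0135, up to 0.0597), AT1G68440 (0.0231, up to 0.0940), AT1G64490 (0.0298, up to 0.103), AT5G19970 (0.0139, up to 0.0629) and probe set 248191_at of AT5G54130 (0.0148, up to 0.0653).

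To see how far the dawn peak repeated between arrays, the rule was applied to the arrays of 2 replicate numbers and read on those of the third. The labels do not tell whether the replicates are separate cultures, so this reads the repeatability of arrays and is no independent test. With replicate 1 held out, 64 probe sets were chosen, and the 6am array was the highest of the 4 held-out arrays in 61 of them, 95.3%, against 28.6% of all tested probe sets. With replicate 2 held out this was so in 61 of 61, against 28.8%, and with replicate 3 held out in 58 of 59, 98.3%, against 28.7%. Members, in which 6am is highest by the rule, made up 50, 54 and 52 of those chosen with replicates 1, 2 and 3 held out. The shares over all tested probe sets are for probe sets not chosen by a 6am lead, so they are no like-for-like comparison. The median lead on the held-out arrays was 1.73 log2 for replicate 1, 1.89 for replicate 2 and 1.90 for replicate 3, against 1.94, 1.92 and 1.90 on the arrays that had chosen the probe sets. The lead on replicate 1 was thus somewhat smaller than where it had been selected, and the lead reached 1.5 on the held-out arrays in 38 of 64, 48 of 61 and 45 of 59 probe sets. The 4 probe sets with a later array above 6am were 253061_at, 267516_at and AT3G07870 on replicate 1 and AT2G16005 on replicate 3.

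**Figure D4:**
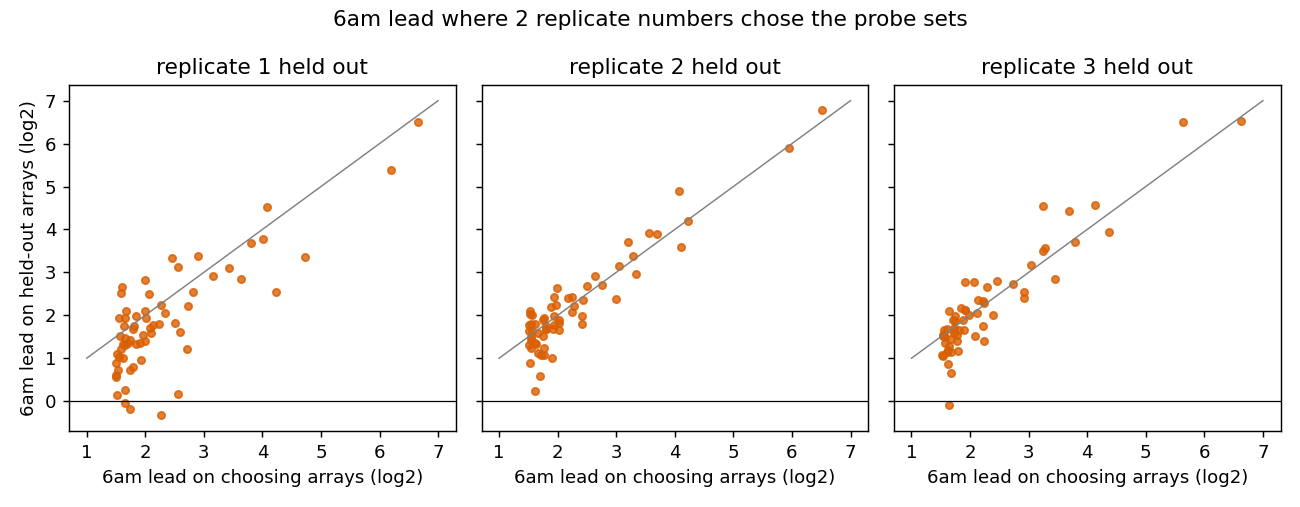
Lead of 6am over the highest later time (log2) on the arrays that chose the probe sets (horizontal) and on the held-out replicate (vertical), with 64, 61 and 59 probe sets from left to right. Points on the grey line have equal leads, and the 4 points under the horizontal line at 0 had a later array above 6am.

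The edges of the group were gradual. Just inside the margin of 1.5 were 245306_at (lead 1.504), AT2G34080 (1.525) and 251869_at (1.532), and just outside it were AT5G42760 (1.495), 256394_at (1.493) and 246522_at (1.482). Another 102 probe sets met the other conditions with a lead between 1 and 1.5. At the level of 6, probe sets 267069_at (6.06), AT3G15310 (6.53) and 253824_at (6.54) were inside, and AT1G65870 (5.68), AT3G01350 (5.58) and AT2G40200 (5.37) were outside. The smallest gap between the lowest 6am and the highest later array was in AT1G54740, at 0.165, followed by 245489_at (0.614) and 252414_at (0.670), and 253061_at was the one probe set left out by that condition alone.

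Pathway genes on named probe sets were few. Of 157 genes on 11 lists (clock, light signalling, cycling Dof factors, trichome patterning, flavonoid and chlorophyll synthesis, light harvesting, plastid sigma factors, sugar starvation, leaf and root markers), 25 were tested, and 2 of these, HYH and AT1G26790, were members. Among the other 23, 9 were higher at 6am than the mean of the later times by limma, against 16.4% of all tested probe sets, and 5 were lower, against 17.2%. On the clock list 2 of 25 genes, RVE6 and GI, were on a probe set naming 1 gene, and the rest were not examined. No value of CCA1 or LHY is given here, and whether they are among the 32 unnamed members was not tested.

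The light-signalling gene AFR, an F-box protein of the phytochrome A pathway, came close to the group. It was at 9.01 ± 0.14 at 6am, 8.01 ± 0.58 at 12pm, 4.27 ± 0.71 at 6pm and 4.46 ± 0.25 at 12am (SD, n = 3), and stood 3.43 ± 0.28 log2 above the mean of the later times (SE, limma adjusted p = 3.65e-06). TRY, a small MYB repressor of trichome formation, had means of 8.71 at 6am, 7.49 at 12pm, 4.43 at 6pm and 7.14 at 12am, and was 2.36 ± 0.31 above the later times (adjusted p = 0.00013). Their leads over 12pm, 1.00 and 1.22 log2, lay under the margin. CDF5, another cycling Dof factor, was higher at 6am by 0.94 ± 0.18 (adjusted p = 0.00176), while CDF4 (-0.24, adjusted p = 0.404) and COG1 (-0.86, adjusted p = 0.068) were not called. Also above the mean of the later times were UGT78D2 of flavonoid synthesis (1.23 ± 0.19), CHLP of chlorophyll synthesis (0.59 ± 0.12) and the antenna gene LHCB4.2 (0.51 ± 0.10). So were IVD (1.18 ± 0.31) and MCCA (1.03 ± 0.32) of leucine breakdown, and RCA, the Rubisco activase (0.31 ± 0.11). A value above this mean does not place the peak at 6am. LHCB4.2 was highest at 12pm, with 14.27 against 14.02 at 6am. In CHLP, IVD and MCCA the 6am arrays overlapped later ones, and CHLP was at 13.76 at 6am and 13.64 at 12pm. The calls of RCA and MCCA were lost in 10 and 4 of 17 alternatives.

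The clock gene GI, unlike the 57, was not high at 6am. It was at the table's floor on every array at 6am and 12am, and at 8.41 ± 0.37 at 12pm and 7.40 ± 0.28 at 6pm. PORB, which makes chlorophyllide in light, was lower at 6am than the later times by 1.49 ± 0.13 log2 (SE), with a mean of 10.50 at 6am. FHL, LHCB4.3 and DFR were also lower at 6am than the mean of the later times. LHCB4.3 was at 7.66 at 6am, 7.28 at 12pm, 8.11 at 6pm and 9.93 at 12am. DFR was at 3.60, 4.55, 3.16 and 7.56 at the same times, so neither of these was lowest at 6am. LHCB4.3 lost its call without 6am replicate 2 (adjusted p = 0.0537) or 6am replicate 3 (0.0572). DFR, of anthocyanin synthesis, lost its call in 11 of 17 alternatives, and FHL, at 3.07 at 6am, lost it with values under 4 set to 4 (adjusted p = 0.307). RVE6, a MYB-like relative of CCA1, differed by -0.05 log2 (adjusted p = 0.832).

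AT1G64490 and AT1G64500 are neighbours on the chromosome in RefSeq's gene table for TAIR10.1, and both were members. Of the 46 loci next to the 23 protein-coding members, looked at after the members' values were seen, 16 others were tested, and 4 were higher at 6am than the mean of the later times, against 16.4% of all tested probe sets, while 2 were lower, against 17.2%. The higher ones were M17, a late-embryogenesis protein gene beside AT2G41250 (2.02 ± 0.18 log2, SE, limma adjusted p = 7.12e-06), MAMI beside AT5G54130 (1.42 ± 0.16), AT4G15420 beside AT4G15430 (1.22 ± 0.13) and AT1G54730 beside AT1G54740 (0.88 ± 0.15). The lower ones were AT5G02430 (-1.21 ± 0.26) and AT1G68430 (-0.79 ± 0.23), the second of which lost its call in 3 alternatives. AT1G64510, on the other side of AT1G64500, differed by -0.05 (adjusted p = 0.778), and the median over the 16 was 0.05 log2.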

How the data were processed

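The authors deposited log2 expression values per probe set for 12 arrays, and the submitters' processing notes name R 3.1, affy 1.42.3 and GCRMA. GCRMA corrects background by probe sequence and sets many dim probe sets near a common floor: 29.3% of values lay within 0.1 of the lowest, so differences near it are compressed. The sources used here do not give the set of arrays normalized jointly, and the number of arrays limits the precision.

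The 64 control probe sets were left out. Probe sets with a log2 of at least 4 on at least 3 arrays (14185) were tested with limma 3.58.1 in R 4.3.3 (lmFit and eBayes, time as 4 levels, 2-sided, Benjamini-Hochberg adjustment over all tested, call at 0.05). The script was tested on simulated data with independent noise and no pairing of arrays. For 12am against 12pm it recovered 51% of shifts of 1 log2 and 89% of shifts of 2 log2, with 11 false calls. A missing call therefore does not show equal levels. The members and gene lists were chosen with earlier results of these data known. Genes named by rule were the 12 largest leads, the 5 highest 6am means, the 4 largest called rises and falls per comparison without overlapping arrays, list members and the probe sets beside each threshold. Other members that name a gene, and the probe sets without one, were named after their values were seen. Gene names came from GEO's platform annotation, in which 13513 probe sets name 1 gene and 503 several, and roles are background. Promoter motifs and family descriptions were not used here. Deviations of same-numbered arrays from their time's mean correlated at 0.26 to 0.65 in all 9 pairs among 12pm, 6pm and 12am. For different numbers the range was -0.56 to 0.19. Deviations cancel over the 3 arrays of a time, so part of this gap is built in. By the positive values of all 9 same-numbered pairs, the numbers pair these arrays. The main fit left the block out, so its SEs and p-values ignore this pairing. The calls that the block added among the members are listed at the end. The labels name no shared source. Alternatives covered the dim filter, the floor, the arrays fitted, the margin, the replicate number as a block and each array left out.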

Additional observations from a re-analysis of the deposited data

How the results depend on the processing

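For 63 called differences, those of members that name a gene, of 266719_at and 251869_at at 12am or 6pm against 12pm, and of list and neighbouring genes, none of 1155 recomputed values changed sign, 1082 kept the call and 73 lost it. With a margin of 1.0 log2 the rule chose 159 probe sets and with 2.0 it chose 26, and leaving out 1 replicate number gave 59 to 64. Leaving out 1 array at a time, the calls among the 57 ranged from 20 to 29 for 12am against 12pm (8 to 14 higher, 11 to 16 lower), from 36 to 38 for 12am against 6pm (34 to 36 higher, 2 to 3 lower) and from 29 to 38 for 6pm against 12pm (1 to 2 higher, 28 to 36 lower). List genes ranged from 7 to 9 higher and 3 to 6 lower, with 3 lower without 6am replicate 2 or 6am replicate 3, and neighbouring genes from 4 to 5 higher and 1 to 2 lower, with 1 lower without 6am replicate 3 and 1 lower with all probe sets tested. With values under 4 set to 4, 1 member was lower at 12am than at 6pm. With the 6 arrays of the 2 times alone, 2 were higher at 6pm than at 12pm. On replicates 2 and 3 alone, an alternative chosen after seeing the data, 4 were lower at 12am than at 6pm and 2 higher at 6pm than at 12pm. The cause of these changes was not tested.

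With the replicate number as a block, 32 members were called for 12am against 12pm, 40 for 12am against 6pm and 39 for 6pm against 12pm, against 28, 36 and 36 without it. Over all tested probe sets the block raised the share called too, to 39.7%, 30.4% and 23.3%, against 28.1%, 19.9% and 14.3% without it. The block ended no call among the members. At 12am against 12pm limma then also called 261569_at (adjusted p = 0.0365), AT4G24700 (0.0141), 245152_at (0.0449) and AT1G64490 (0.0465). The calls gained at 12am against 6pm were for AT1G54740, AT1G50180, 245489_at and 251869_at. Those gained at 6pm against 12pm were for 247714_at, 252414_at and 245489_at. With 6am included, 17 of 18 same-numbered pairs correlated at over 0.1, and the other, replicate 3 of 6am and 12am, at 0.06. For 11 of the 12 arrays the best correlated array of another time had the same number. The exception was 6am replicate 3, which correlated best with 6pm replicate 2 (0.40). The 6am differences above were fitted without the block, and these values do not show that 6am was unpaired. With the block, 11 list genes were higher at 6am and 6 lower, and 6 neighbouring genes higher and 3 lower. Values near the floor limit what can be read of dim transcripts. The promoter motif and family counts that had been planned were not run.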
